A study of Rattus norvegicus with 9 samples.

Results

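The genes described here encode the extracellular matrix and its receptors: collagens, laminins, integrins and a set of matrix glycoproteins and proteoglycans. They were chosen by gene symbol alone, as every probe set named for a collagen chain, a laminin chain or an integrin subunit, together with Fn1, Nid1, Nid2, Hspg2, Agrn, Sparc, Tnc, Fbn1, Fbln1, Fbln2, Fbln5, Bgn, Dcn, Lum, Vcan and Spp1. Thbs1, which the rule also names, has no row in the platform's probe table and was not analysed here. The rule took 94 probe sets of 68 genes, out of 15866 probe sets on the array. 4 of the 94 carry symbols that begin like an integrin's but encode integrin-binding proteins (Itgb3bp, Itgb1bp1 and Itgb1bp2), and they are kept apart below.

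The tissue was the ureteric bud of the rat, the epithelial outgrowth that branches to form the collecting ducts of the kidney. Buds of Sprague-Dawley embryos at embryonic day 13 were isolated and cultured for 4 days in a gel that was 50% type 1 collagen and 50% Matrigel with reduced growth factors, with FGF1 at 250 ng/ml and GDNF at 125 ng/ml in every medium. The HRG buds also received heregulin, an ErbB receptor ligand, at 500 ng/ml, the PTN buds received approximately 3 µg/ml of pleiotrophin, a secreted protein that binds heparin and had been purified out of conditioned medium, and the BSN buds received that whole medium, taken from a cell line of the metanephric mesenchyme. A sample was the RNA of 3 buds, and each medium had 3 samples, which the series design calls biological replicates, so 9 arrays were read. The title counts the BSN and PTN cultures as branching and the HRG cultures as non-branching, while the description of the PTN samples says non-branching, so groups are named by medium only. There was no group with FGF1 and GDNF alone, so a gene higher in one medium cannot be told apart from a gene lower in the other. The Matrigel and collagen around the buds are protein, and the values here are of RNA in the buds.

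The basement membrane under an epithelium is built from laminin trimers and a network of type IV collagen, joined by nidogens and the heparan sulfate proteoglycans perlecan (Hspg2) and agrin. Integrins, pairs of an alpha and a beta subunit, hold the cells to it and connect it to the actin cytoskeleton. Beyond it lies the interstitial matrix of fibrillar collagens, fibronectin, fibrillin and fibulins, which in the kidney is mainly the product of stromal cells, and in the ureteric bud, laminin and integrin subunits are known to be needed for branching.

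Each probe set has 1 signal on each array, on a linear scale set by the array software. A probe set was kept for testing when its signal was above the 40th percentile of its array on at least 3 of the 9 arrays. Of the 94 member probe sets 56 were kept, for 44 of the 68 genes. They are 56 of 10106 kept on the whole array. Of these, 33 were above the percentile on 9 arrays, 16 on 6 to 8, and 7 on 3 to 5. A member kept only through the medium where it is bright had to differ between media, so the counts below are given as a description. Changes are differences of log2(signal + 16), folds are on that scale, and a change was called when limma's adjusted p (Benjamini-Hochberg over all 10106 probe sets) was under 0.05. No fold is given where the mean of a medium was under the mean 40th percentile of its arrays, which was 691 in HRG, 632 in PTN and 750 in BSN. All 3 comparisons draw on the same 3 groups of arrays, so they are not independent of each other.

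The epithelial label was borne out by the markers: 10 of 11 ureteric epithelium markers on the array were kept, and Epcam averaged 61147 ± 7133 in HRG, 55695 ± 3073 in PTN and 63332 ± 2144 in BSN (SD, n = 3). None of the 3 measured metanephric mesenchyme markers was kept. PTN replicate 1 was the array least like its group, with a mean Pearson r across kept probe sets of 0.946 to the other PTN arrays, against 0.962 to 0.976 for the other 8 arrays. The actin control's ratio of 3' to 5' signal, which depends on RNA integrity and on the 2 rounds of amplification used, was 25.2 ± 5.86 in HRG, 16.6 ± 1.4 in PTN and 33.2 ± 4.91 in BSN (SD, n = 3). HRG and BSN differed with an exact permutation p of 0.2 (two-sided), and each comparison with PTN gave 0.1, the smallest that 3 against 3 can give. The GAPDH control ran in another order, with ratios of 2.92 ± 0.802 in HRG, 5.14 ± 1.98 in PTN and 4.57 ± 1.11 in BSN (SD, n = 3), and its exact permutation p was 0.1 for HRG with BSN, 0.3 for HRG with PTN and 0.8 for PTN with BSN. The part of these ratios in the results was not tested.

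In heregulin, more matrix genes were lower than higher when set against conditioned medium. Of the 56 kept members 14 fell (25%), against 8.86% of all kept probe sets, and 3 rose, against 6.92%. The 14 came from 12 genes and included Lama4, Col2a1, Vcan, Fbln2, Col5a2, Col9a1 and Fn1. The probe sets that rose were both of Col18a1 and the Col4a5 probe set, all collagens of basement membranes. The median log2 change was -0.23 over the members and -0.04 over all kept probe sets. With no filter on low signals, 13 of the 94 were lower and 2 higher, against 5.34% and 3.79% of all 15866 probe sets. Changes of at least 2-fold were called lower for 9 members and higher for 2, against 3.03% and 1.82% of all kept probe sets. In bulk samples such as these, fewer cells of a type and less RNA per cell cannot be told apart.

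Against pleiotrophin, heregulin gave 13 lower members (23.2%), against 11.7% of all kept probe sets, and 7 higher members (12.5%), against 14.1%. Col9a1, Lama4, Col2a1, Vcan, Fbln2 and Fn1 were among the lower ones here too, joined by Lama1, while Col18a1, Sparc, Lama3, Fbn1 and Itga3 were the higher genes. The median log2 change was -0.13 over the members and 0.08 over all kept probe sets. With no filter 10 of the 94 were lower and 7 higher, against 6.88% and 7.88% of all probe sets. At 2-fold or more 9 members were lower and 1 was higher, against 3.67% and 3.73%. After median centring 14 members were lower and 5 higher, against 14% and 10.7% of all kept probe sets. The count of higher members was 4 without HRG replicate 3.

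Pleiotrophin and the conditioned medium it was purified from differed at 13 members. Heregulin differed at 17 from conditioned medium and at 20 from pleiotrophin. This order did not hold for the whole array. Of all kept probe sets 1351 were lower and 925 higher in PTN than in BSN, more than the 895 and 699 for heregulin with conditioned medium. Heregulin with pleiotrophin had 1180 lower and 1423 higher. In PTN 10 members (17.9%) were lower than in BSN, against 13.4% of all kept probe sets, and 3 (5.36%) were higher, against 9.15%. The lower ones were both probe sets of Col5a2 and of Sparc, with Fbn1, Fbln2, Lama5, Lamc1, Itga3 and Itgb5, and the higher ones were Col9a1, Lama1 and 1 probe set of Itgb1. At 2-fold or more 3 members were lower and 1 was higher, against 2.97% and 1.26%, and with no filter 8 of the 94 were lower and 3 higher, against 7.82% and 5.06%. The count of lower members was 5 without BSN replicate 3 and 6 without PTN replicate 3. The median over all kept probe sets in this comparison was -0.11 on the log2 scale, against -0.18 over the members, and after median centring the members numbered 7 lower and 4 higher, against 8.75% lower and 13.3% higher of all kept probe sets under that centring. Over the 3 comparisons together 29 of the 56 passed at least once (51.8%), against 38.7% of all kept probe sets.

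**Figure D1:**
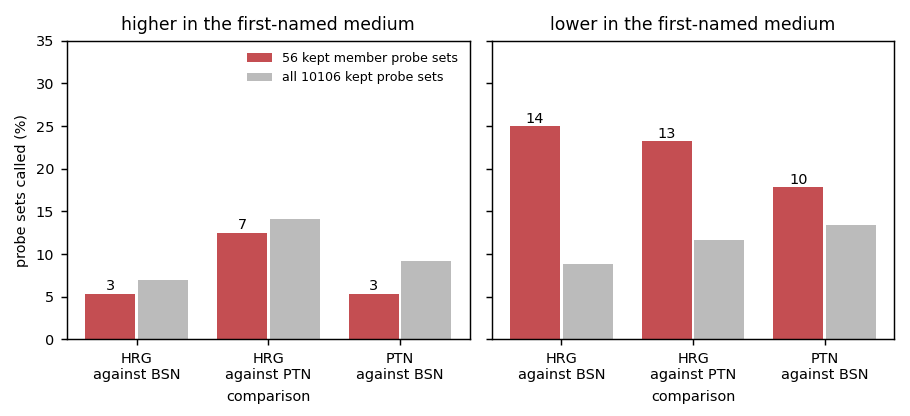
Share of probe sets called lower and higher, in percent, for the 56 matrix and integrin probe sets and for all 10106 kept probe sets, in each of the 3 comparisons. The share called lower in HRG against BSN was 25% of the members and 8.86% of all.

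**Figure D2:**
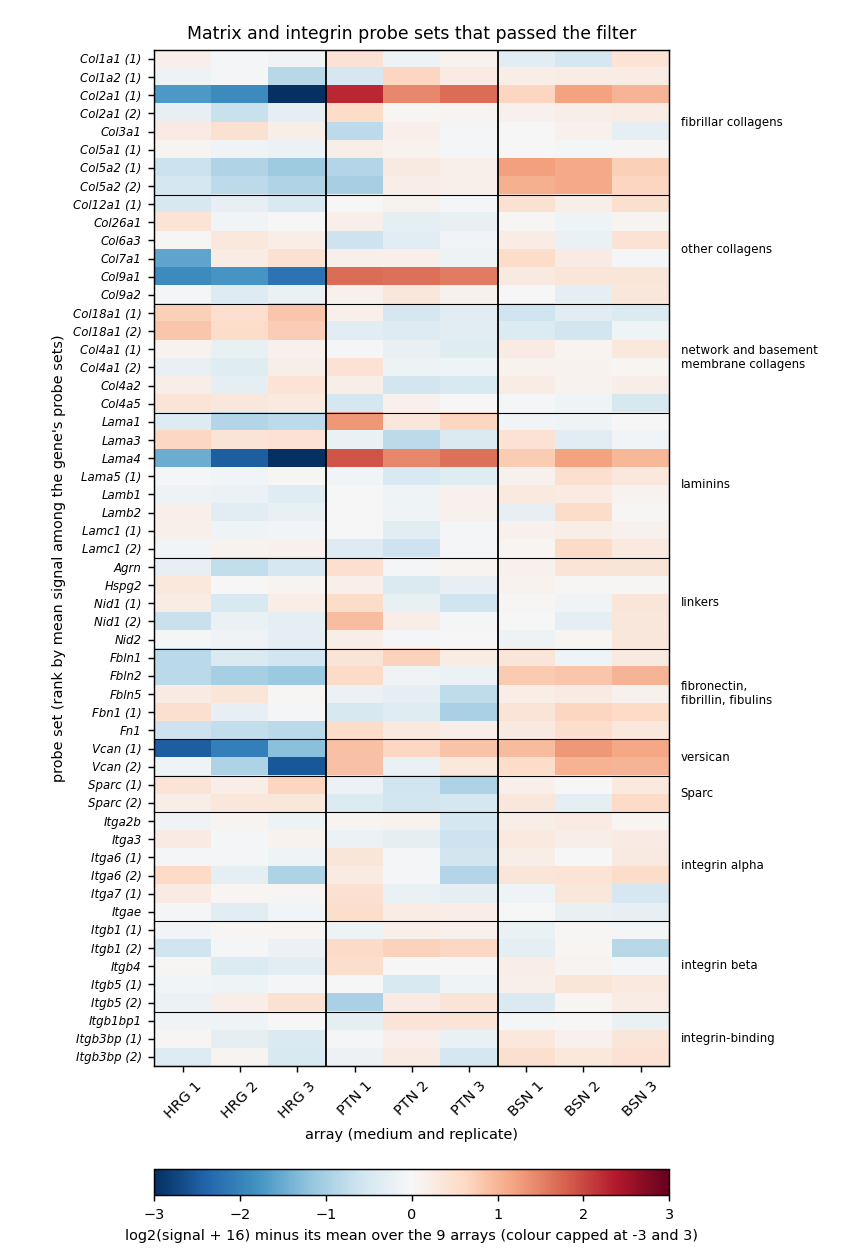
Log2 signal of each of the 56 kept member probe sets on the 9 arrays, minus the probe set's mean over the arrays and limited to 3 in either direction, with HRG, PTN and BSN arrays from left to right and probe sets grouped by role. The Lama4 row and the brightest Col2a1 and Vcan rows are low on all 3 HRG arrays, and both Col18a1 rows are high there.

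Fibrillar collagens form the tensile fibres of interstitial matrix. Of their 16 probe sets 8 were kept, and 3 fell in HRG against BSN, 2 in HRG against PTN and 2 in PTN against BSN, with none higher. Among all kept probe sets 8.86%, 11.7% and 13.4% were lower in the same comparisons, and the 2 in PTN against BSN are both of Col5a2. Col2a1, the type II collagen best known from cartilage, had signals of 362, 317 and 34 in HRG, 6013, 3364 and 3981 in PTN, and 1942, 2855 and 2516 in BSN on its brighter probe set. Every HRG array was below the lowest PTN and BSN array, and every PTN array was above every BSN array. The adjusted p was 8.85e-05 for HRG against PTN and 0.000695 for HRG against BSN, while PTN and BSN did not differ past the threshold (log2 change 0.84, 95% interval -0.39 to 2.07, adjusted p = 0.306), but did in a fit of only those groups (0.0287) and without HRG replicate 3 (0.0189). The HRG signals lay below the 40th percentile, so no fold is given. A second Col2a1 probe set, with means of 659 ± 100 in HRG, 1030 ± 218 in PTN and 987 ± 31.4 in BSN (SD, n = 3), passed as lower in HRG against PTN (adjusted p = 0.0356) and missed in HRG against BSN (0.0675), where it passed with no intensity trend, array weights, only those groups, or without PTN replicate 1 (0.0163 to 0.0451). The call against PTN was lost with no filter, in a fit of only those groups, and without HRG replicate 2 or 3, PTN replicate 1 or BSN replicate 1 (adjusted p = 0.0518 to 0.128).

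Col5a2, a chain of type V collagen that starts and limits the growth of fibrils, separated conditioned medium from both purified factors. Its brighter probe set had signals of 926, 775 and 691 in HRG, 789, 1762 and 1643 in PTN, and 3471, 3242 and 2412 in BSN. Every BSN array was above every other array, and the HRG and PTN arrays overlapped through PTN replicate 1. The gene was 3.74-fold lower in HRG than in BSN (adjusted p = 0.000352) and 2.27-fold lower in PTN than in BSN (0.00776). The second probe set gave 3.24-fold (0.00099) and 2.24-fold (0.00966). Between HRG and PTN neither passed (adjusted p = 0.0628 and 0.178), but without PTN replicate 1 both did (0.000824 and 0.00221). Col5a1, its partner chain, had a mean signal of 1539 ± 147 in HRG, 1693 ± 139 in PTN and 1600 ± 43 in BSN (SD, n = 3), with adjusted p of 0.503 to 0.829. The interval of its log2 change in HRG against BSN was -0.36 to 0.24. The type I and III chains Col1a1, Col1a2 and Col3a1, the main fibrillar collagens of fibroblasts, had mean signals of 551 to 885 over the media, close to the 40th percentile, and passed in no comparison.

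Collagens that decorate fibrils or form beaded filaments included Col9a1, a chain of type IX collagen, which coats type II fibrils in cartilage and has a second, shorter product in other tissues. Col9a1 had signals of 1873, 2053 and 1512 in HRG, 22412, 22285 and 20676 in PTN, and 8511, 9097 and 9076 in BSN. The 3 media did not overlap, with PTN highest and HRG lowest. Beside the 12-fold gap between HRG and PTN (adjusted p = 4.14e-09), the gene was 4.91-fold lower in HRG than in BSN (2.33e-07) and 2.45-fold higher in PTN than in BSN (7.04e-05). Col9a2, which encodes a partner chain, had mean signals of 1477 ± 167 in HRG, 1973 ± 175 in PTN and 1750 ± 394 in BSN (SD, n = 3). It passed in no comparison, although every HRG array was below every PTN array (adjusted p = 0.0975). Col12a1, a fibril-associated chain, fell in HRG to 672 ± 62.2, against 1161 ± 142 in BSN (SD, n = 3, adjusted p = 0.00928). Its PTN mean of 903 ± 58.4 lay between them and passed against neither (adjusted p = 0.0997 with HRG and 0.168 with BSN), but passed with HRG after quantile normalization (0.0354). Col6a3, Col7a1 and Col26a1, the other kept members of this group, passed in no comparison.

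**Figure D3:**
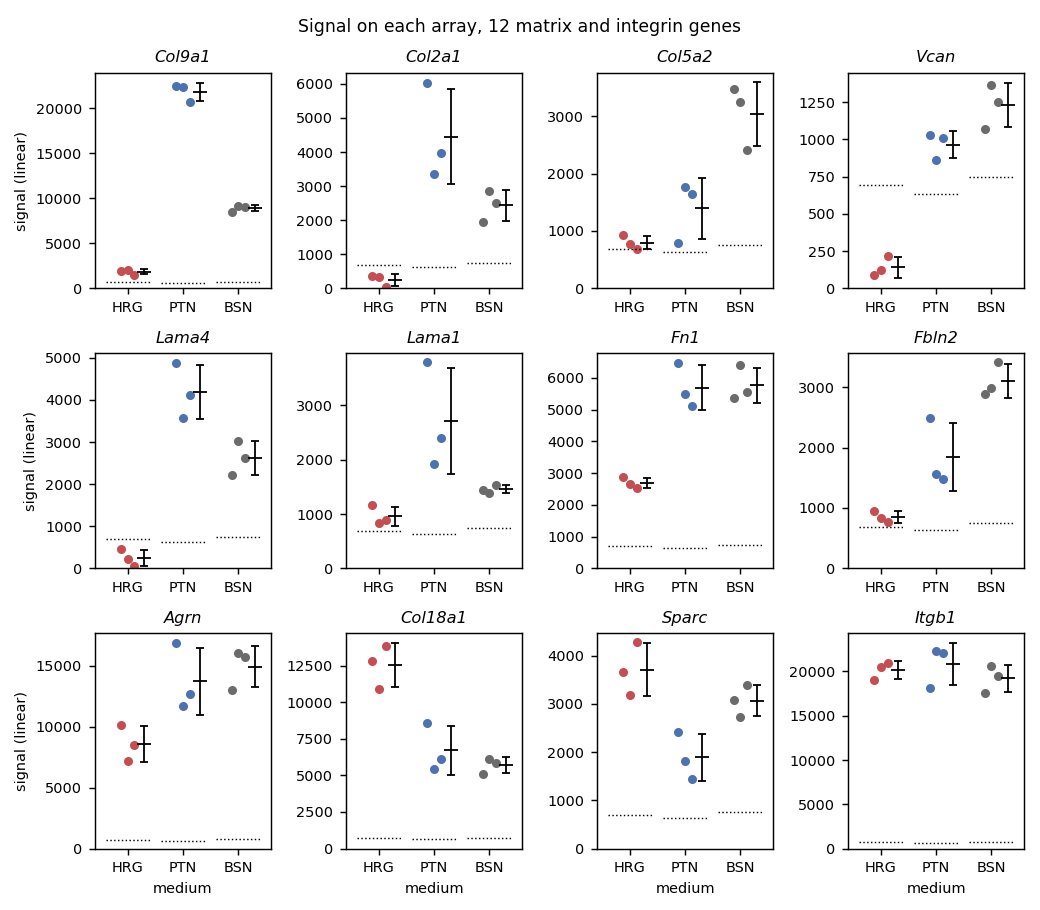
Signal on each array for 12 genes, each shown by its brightest probe set, with dots for single arrays, bars for the mean ± SD (n = 3) and a dotted line at the mean 40th percentile of the media. HRG, PTN and BSN run from left to right, and the vertical axes show the signal. The Col9a1 dots of the 3 media do not overlap, and the HRG dots of Lama4 and Col2a1 lie under the dotted line.

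Of 11 probe sets of basement membrane and network-forming collagens 6 were kept, of which 3 were higher in HRG than in BSN (against 6.92% of all kept probe sets), 2 were higher in HRG than in PTN (against 14.1%), and none was lower in any comparison. These calls came from Col18a1 and, in HRG against BSN, also from Col4a5. Col18a1 encodes type XVIII collagen, a heparan sulfate proteoglycan of basement membranes from which endostatin is cleaved. Its brighter probe set had signals of 12831, 10919 and 13849 in HRG, 8577, 5441 and 6108 in PTN, and 5118, 6150 and 5828 in BSN. Its second probe set had signals of 4402, 3633 and 4135 in HRG, 1981, 1877 and 1981 in PTN, and 1839, 1665 and 2235 in BSN. On both probe sets every HRG array was above every other array, and the PTN and BSN arrays overlapped. The brighter probe set was 2.19-fold higher in HRG than in BSN (adjusted p = 0.000641) and 1.89-fold higher in HRG than in PTN (0.00181), and the second gave 2.12-fold (0.000232) and 2.07-fold (0.000179). PTN and BSN did not differ past the threshold on either (adjusted p = 0.397 and 0.886), with 95% intervals of the log2 change of -0.16 to 0.58 and -0.28 to 0.35.

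Col4a5, the type IV chain mutated in X-linked Alport syndrome, had signals of 18527, 17626 and 17175 in HRG, 9842, 15208 and 13922 in PTN, and 13493, 12750 and 10016 in BSN. All 3 HRG arrays were the highest, and the gene was 1.48-fold higher in HRG than in BSN (adjusted p = 0.0373). That call was lost with no filter, without an intensity trend, and without BSN replicate 2 or 3 or any 1 of the HRG arrays (adjusted p = 0.0619 to 0.158). Against PTN the adjusted p was 0.0542, and it passed after quantile normalization (0.0212), with a filter at the 60th percentile (0.0475), and without BSN replicate 3 (0.0497) or PTN replicate 2 (0.0295). Col4a1 and Col4a2, which encode the chains of the type IV collagen found in all basement membranes, passed in no comparison. Col4a1 had signals of 3207, 2531 and 3239 in HRG, 2850, 2515 and 2281 in PTN, and 3483, 3108 and 3702 in BSN on its brighter probe set. HRG overlapped both other media, and every PTN array was below every BSN array (log2 change -0.43, 95% interval -0.75 to -0.11, adjusted p = 0.0543). It passed in PTN against BSN with array weights (0.0156), with a filter at the 60th percentile (0.0428) and without PTN replicate 1 (0.0213). The second Col4a1 probe set averaged 1935 ± 390 in HRG, 2240 ± 554 in PTN and 2240 ± 45.3 in BSN (SD, n = 3). It did not share that difference between PTN and BSN (log2 change -0.03, adjusted p = 0.93), and its HRG mean was below its PTN mean (adjusted p = 0.461), where the brighter probe set had HRG above PTN (0.29). Col4a2 averaged 2668 ± 608 in HRG, 2049 ± 598 in PTN and 2744 ± 126 in BSN (SD, n = 3), with adjusted p of 0.131 to 0.883.

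Promoter sequence is shown for 4 basement membrane members: Col18a1, Lama3, Lama4, and Col4a1, whose promoter region is shared with Col4a2. Col18a1 passed as higher in HRG than in both other media, and Lama4 as lower than in both. Lama3 passed as higher in HRG against PTN and did not pass against BSN. Windows run from 250 bases before to 50 bases after the gene start of RefSeq, on build GRCr8, 5′ to 3′ on the strand of the gene, and 53 of the 68 member genes had one. Col18a1 lies at chr20:11473395-11473694 (+), Lama4 at chr20:43946648-43946947 (+), Lama3 at chr18:3952517-3952816 (+) and Col4a1 at chr16:84885347-84885646 (+). Capitals mark matches, on either strand, to 4 motifs: the TATA box TATAAA, the CCAAT box CCAAT, the GC box GGGCGG and the AP-1 site TGANTCA. The matches do not overlap each other.
Col18a1: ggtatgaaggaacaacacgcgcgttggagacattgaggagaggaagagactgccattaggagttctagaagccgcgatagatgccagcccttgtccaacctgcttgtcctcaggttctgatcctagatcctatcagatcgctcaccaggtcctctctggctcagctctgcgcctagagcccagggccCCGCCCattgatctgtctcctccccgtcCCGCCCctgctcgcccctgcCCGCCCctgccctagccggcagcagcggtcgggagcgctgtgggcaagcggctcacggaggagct
Lama4: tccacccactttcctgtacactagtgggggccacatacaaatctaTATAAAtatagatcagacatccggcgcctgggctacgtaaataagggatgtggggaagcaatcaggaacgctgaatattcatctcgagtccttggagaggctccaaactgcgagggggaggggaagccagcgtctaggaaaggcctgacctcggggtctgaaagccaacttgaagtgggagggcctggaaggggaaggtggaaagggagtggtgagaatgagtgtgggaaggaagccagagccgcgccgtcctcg
Lama3: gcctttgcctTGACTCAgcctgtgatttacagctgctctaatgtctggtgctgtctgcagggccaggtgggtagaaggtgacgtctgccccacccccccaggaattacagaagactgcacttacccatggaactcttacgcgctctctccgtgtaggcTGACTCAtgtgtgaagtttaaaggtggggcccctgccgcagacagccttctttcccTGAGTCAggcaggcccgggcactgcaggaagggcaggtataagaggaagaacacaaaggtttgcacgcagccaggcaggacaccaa
Col4a1: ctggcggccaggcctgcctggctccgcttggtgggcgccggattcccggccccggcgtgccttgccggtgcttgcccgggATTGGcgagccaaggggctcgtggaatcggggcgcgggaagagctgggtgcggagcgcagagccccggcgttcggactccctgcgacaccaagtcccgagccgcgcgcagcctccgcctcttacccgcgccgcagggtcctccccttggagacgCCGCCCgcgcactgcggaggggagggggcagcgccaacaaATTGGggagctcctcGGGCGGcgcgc
The Col18a1 window holds 3 GC boxes, beginning 63, 35 and 15 bases before the gene start, and 9.72% of all 27457 promoter windows of this length hold 3 or more. The Lama4 window holds 1 TATA box, which begins 205 bases before the gene start. The Lama3 window holds 3 AP-1 sites, beginning 240, 92 and 36 bases before the gene start, and 3 of the 27457 windows hold 3 or more (0.0109%). The Col4a1 window holds 2 CCAAT boxes and 2 GC boxes. The gene start of Col4a2 lies 77 bases away on the opposite strand, so the windows of this head-to-head pair share 176 bases. Of all windows 14.3% hold a TATA box, 37.7% a CCAAT box, 34.9% a GC box and 7.33% an AP-1 site, and of the 53 member windows 6, 15, 26 and 2 do (11.3%, 28.3%, 49.1% and 3.77%). A match describes the letters and is not a measured binding site, and the genes shown were picked by hand. The cut of 3 or more equals the count in the Col18a1 and Lama3 windows, so those shares are descriptions and test nothing. The Col9a1 window, not shown, holds no match to the 4 motifs.

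Laminins are trimers of an alpha, a beta and a gamma chain, and the alpha chain sets which receptors bind. Of 10 laminin probe sets 8 were kept, for 7 genes. 2 fell in HRG against BSN with none higher, 2 fell and 1 rose in HRG against PTN, and 2 fell and 1 rose in PTN against BSN. The shares lower were 25% in each comparison, against 8.86%, 11.7% and 13.4% of all kept probe sets, and 1 of 8 higher (12.5%) stands against 14.1% and 9.15%. All calls with a log2 change of at least 1 were of alpha chains. Lama4, an alpha chain known mainly from blood vessels, muscle and nerve, had signals of 457, 222 and 68 in HRG, 4865, 3569 and 4128 in PTN, and 2229, 3020 and 2624 in BSN. HRG was below the 40th percentile on all 3 arrays, and the 3 media did not overlap. Lama4 fell in HRG against BSN (adjusted p = 0.00012) and against PTN (1.86e-05). PTN and BSN did not differ past the threshold (log2 change 0.67, 95% interval -0.28 to 1.62, adjusted p = 0.291), and they did in a fit of only those groups (0.024).

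Lama1, the alpha chain of the laminin of early embryonic epithelia and the main laminin of Matrigel, had signals of 1163, 833 and 885 in HRG, 3797, 1929 and 2391 in PTN, and 1441, 1396 and 1537 in BSN. The 3 media again did not overlap, with PTN highest. Lama1 was 2.71-fold lower in HRG than in PTN (adjusted p = 0.000437) and 1.77-fold higher in PTN than in BSN (0.0177), a call lost without BSN replicate 1 (0.0531) or BSN replicate 2 (0.0554). HRG against BSN did not pass (log2 change -0.61, adjusted p = 0.0847), but did with array weights, the replicate block, only the groups compared, or without PTN replicate 1 (0.00768 to 0.0409).

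Lama3, the alpha chain of the laminin that anchors hemidesmosomes in stratified and transitional epithelia, ran the other way. It had signals of 1415, 1196 and 1252 in HRG, 789, 522 and 670 in PTN, and 1239, 715 and 864 in BSN. It was 1.95-fold higher in HRG than in PTN, whose arrays did not overlap (adjusted p = 0.00731), and BSN overlapped both (adjusted p = 0.185 for HRG against BSN and 0.144, or 0.0229 with array weights, for PTN against BSN). Lama5, the alpha chain of most mature epithelial basement membranes, had signals of 5383, 5331 and 5727 in HRG, 5323, 4114 and 4391 in PTN, and 6162, 8022 and 7025 in BSN. BSN was above the other media on every array, and Lama5 was 1.53-fold lower in PTN than in BSN (adjusted p = 0.00933), while HRG did not pass against BSN (0.12) or against PTN (0.216, or 0.0388 with array weights).

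Lamb1, the beta chain of early epithelial laminins, averaged 30675 ± 2304 in HRG, 36238 ± 3151 in PTN and 41963 ± 2898 in BSN (SD, n = 3). It was 1.37-fold lower in HRG than in BSN (adjusted p = 0.0157), a call lost without HRG replicate 3, BSN replicate 1 or BSN replicate 2 (0.0596 to 0.08) or any filter (0.0536). Lamc1, the gamma chain shared by most laminins, had signals of 16106, 13253 and 13679 in HRG, 14333, 11668 and 14050 in PTN, and 15959, 16536 and 15785 in BSN on its brighter probe set. The HRG and PTN arrays overlapped, and this probe set passed in no comparison with all arrays and the settings used here (adjusted p = 0.139 for PTN against BSN), but did with quantile normalization (0.0433) or array weights (0.0333). The dimmer Lamc1 probe set was 1.58-fold lower in PTN than in BSN (0.0368). That call was lost after quantile normalization (0.209) or median centring (0.0834), with no filter (0.0647), in a fit of only those groups (0.0684), and without BSN replicate 2 or 3, HRG replicate 2 or 3, or PTN replicate 2 (0.0517 to 0.131). Lamb2, the beta chain of mature kidney basement membranes, passed in no comparison (adjusted p = 0.48 to 0.751).

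Nidogens, perlecan and agrin join the laminin and type IV collagen networks, and all 5 of their probe sets were kept. Agrn, encoding agrin, had signals of 10102, 7138 and 8473 in HRG, 16822, 11649 and 12638 in PTN, and 13013, 16005 and 15723 in BSN. Every HRG array was below every other array, while PTN and BSN overlapped. Agrin was 1.75-fold lower in HRG than in BSN (adjusted p = 0.0059) and 1.59-fold lower in HRG than in PTN (0.0112), a call lost without HRG replicate 2 (0.0553). Nid1, encoding nidogen 1, had signals of 1527, 952 and 1512 in HRG, 1931, 1116 and 853 in PTN, and 1346, 1210 and 1695 in BSN on its brighter probe set, where all media overlapped and no comparison passed (adjusted p = 0.646 to 0.855). Its dimmer probe set was 1.67-fold lower in HRG than in PTN (adjusted p = 0.0476). The Nid1 probe sets thus disagree, and that call was lost with no filter, without an intensity trend, with array weights, with the replicate block (0.0579), in a fit of only those groups, and without any 1 of the HRG or BSN arrays or PTN replicate 1 or 2 (0.0508 to 0.169). Nid2 and Hspg2 passed in no comparison, with adjusted p of 0.383 to 0.946 and 0.228 to 0.857.

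Fibronectin, fibrillin and the fibulins are glycoproteins of matrix fibres. Of 6 probe sets 5 were kept, and 3 fell in HRG against BSN, 3 fell and 1 rose in HRG against PTN, and 2 fell in PTN against BSN. The shares lower were 60%, 60% and 40% of 5 probe sets, against 8.86%, 11.7% and 13.4% of all kept probe sets. The 1 that rose in HRG against PTN is 20%, against 14.1%. Fn1, encoding fibronectin, the ligand of several beta 1 and alpha V integrins, had signals of 2864, 2656 and 2541 in HRG, 6481, 5484 and 5122 in PTN, and 5357, 6398 and 5541 in BSN. All HRG arrays were below all others, and PTN and BSN overlapped. Fn1 was 2.14-fold lower in HRG than in BSN (adjusted p = 0.000157) and 2.11-fold lower in HRG than in PTN (0.000108), and the interval of the log2 change between PTN and BSN was -0.32 to 0.28.

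Fbln2, encoding fibulin 2, which links fibronectin, nidogen and laminin, had signals of 949, 831 and 760 in HRG, 2495, 1557 and 1472 in PTN, and 2883, 2985 and 3418 in BSN. The media did not overlap and stood in the order BSN, PTN, HRG. Fbln2 was 3.61-fold lower in HRG than in BSN (adjusted p = 3.57e-05), 2.1-fold lower in HRG than in PTN (0.00145) and 1.72-fold lower in PTN than in BSN (0.0123). The last call was lost without BSN replicate 3 (0.0559) or PTN replicate 3 (0.053).

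Fbln1, encoding fibulin 1, had signals of 343, 448 and 404 in HRG, 799, 988 and 715 in PTN, and 784, 556 and 738 in BSN. All 3 HRG arrays were lower than the other arrays, and HRG fell against PTN (adjusted p = 0.00664) and against BSN (0.0456). The BSN call was lost after quantile normalization, median centring, no filter or the replicate block (0.066), and without BSN replicate 1 or 3, PTN replicate 2 or 3 or any 1 of the HRG arrays (0.0518 to 0.154). Fbn1, encoding fibrillin 1, the core of microfibrils, had signals of 1431, 862 and 992 in HRG, 728, 796 and 509 in PTN, and 1328, 1596 and 1550 in BSN. Here PTN was the low medium, 2.2-fold lower than BSN (0.0036). Fbn1 was 1.59-fold higher in HRG than in PTN (0.0422), a call lost after quantile normalization, median centring, no filter, array weights or a fit of only those groups, and without any 1 of the BSN arrays, HRG replicate 1 or 3, or PTN replicate 3 (0.0514 to 0.183). Fbln5, encoding fibulin 5 of elastic fibres, averaged 778 ± 89.6 in HRG, 509 ± 105 in PTN and 761 ± 34.5 in BSN (SD, n = 3) and passed in no comparison (adjusted p = 0.0594 to 0.96).

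**Figure D4:**
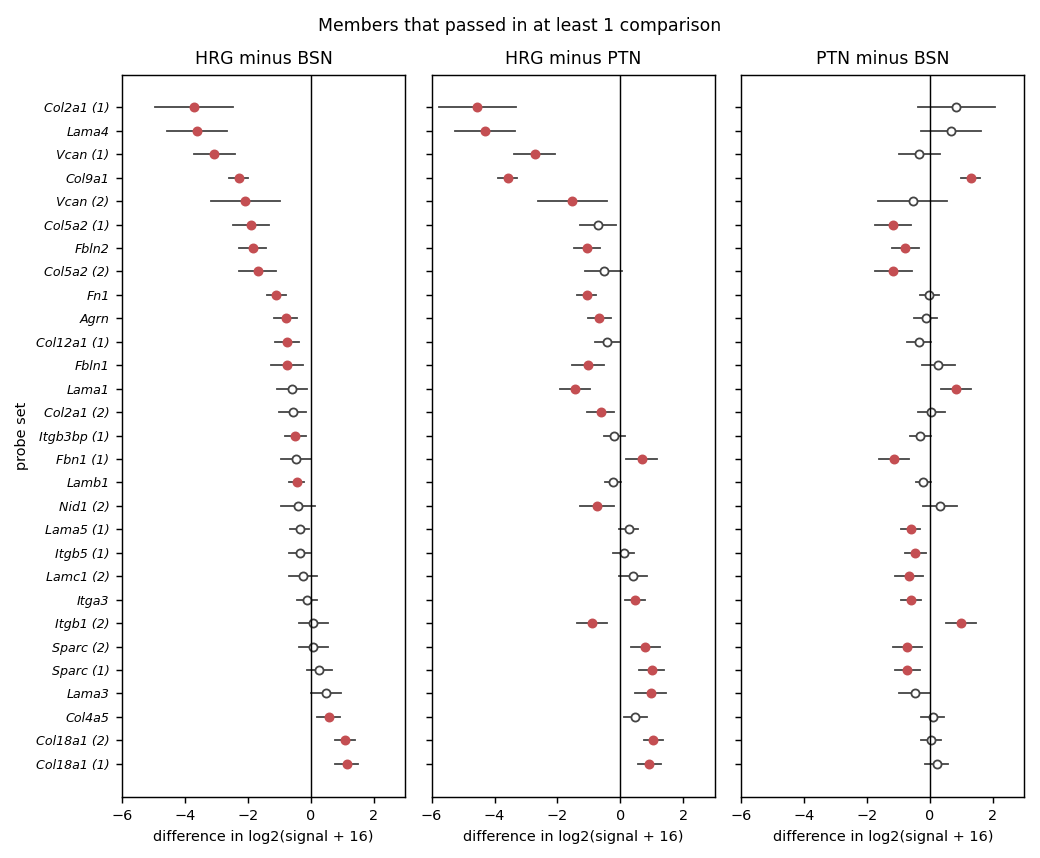
Difference in log2(signal + 16) with its 95% interval for the 29 member probe sets that passed in at least 1 comparison, in panels for HRG against BSN, HRG against PTN and PTN against BSN, where filled points passed at an adjusted p under 0.05. Col9a1 lies left of 0 in both HRG panels (-2.30 and -3.59) and right of 0 in PTN against BSN (1.29).

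Among the members that are proteoglycans of the interstitial matrix, versican was the one that was kept. Other proteoglycans that were kept, such as Acan and Ogn, are counted below with the other matrix glycoproteins. Vcan, a large chondroitin sulfate proteoglycan of loose embryonic matrix, had signals of 86, 120 and 220 in HRG, 1027, 860 and 1011 in PTN, and 1073, 1367 and 1254 in BSN on its brightest probe set. HRG lay far below the other media, and PTN lay just below BSN on every array. It fell in HRG against BSN (adjusted p = 2.25e-05) and against PTN (3.68e-05). A second Vcan probe set had signals of 439, 246 and 69 in HRG, 908, 416 and 604 in PTN, and 717, 1020 and 994 in BSN. It passed as lower in HRG against BSN (0.0135), lost without BSN replicate 2 (0.0596) or 3 (0.0539), and against PTN (0.0409), where the arrays overlapped. The PTN call was lost with no filter, in a fit of only those groups, and without any 1 of the BSN arrays, HRG replicate 2 or 3, or PTN replicate 1 or 3 (0.0551 to 0.125). The other 3 Vcan probe sets were not kept, nor were decorin, biglycan and lumican (Dcn, Bgn and Lum), the small proteoglycans of connective tissue, which had mean signals of 237 to 591 over the media.

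Matricellular proteins act on cells from the matrix without building it. Sparc, which binds collagen and helps to lay down type IV collagen, had signals of 3658, 3180 and 4276 in HRG, 2415, 1807 and 1444 in PTN, and 3070, 2734 and 3385 in BSN on its brighter probe set. PTN was below both other media on every array, and HRG and BSN overlapped. Sparc was 1.98-fold higher in HRG than in PTN (adjusted p = 0.00196) and 1.65-fold lower in PTN than in BSN (0.0155), a call lost without BSN replicate 3 (0.0678) or PTN replicate 3 (0.0664). The dimmer Sparc probe set also passed in both comparisons (0.0164 and 0.0318). Its call against PTN was lost without HRG replicate 2 (0.0549) or HRG replicate 3 (0.0579). Its PTN against BSN call was lost after quantile normalization or median centring, with no filter, in a fit of only those groups, and without BSN replicate 1 or 3 or PTN replicate 2 or 3 (0.0599 to 0.144). Spp1, encoding osteopontin, was not kept, with mean signals of 575 in HRG, 652 in PTN and 379 in BSN, and tenascin C (Tnc) was not kept either, at 241, 220 and 221.

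Of the 11 kept integrin probe sets, 6 of alpha and 5 of beta subunits, none passed in HRG against BSN. In HRG against PTN 1 rose and 1 fell, and in PTN against BSN 1 rose and 2 fell. Of all kept probe sets 6.92% rose and 8.86% fell in HRG against BSN, and with 11 probe sets none passing is near these shares. In HRG against PTN 14.1% of all kept probe sets rose and 11.7% fell, and in PTN against BSN 9.15% rose and 13.4% fell. Itgb1, the beta 1 subunit that pairs with most matrix-binding alpha subunits, had signals of 19020, 20512 and 20959 in HRG, 18094, 22283 and 22051 in PTN, and 17560, 20571 and 19517 in BSN on its brighter probe set. All media overlapped, and the 95% intervals of the log2 change were -0.20 to 0.34 for HRG against BSN, -0.31 to 0.23 for HRG against PTN and -0.16 to 0.38 for PTN against BSN. The dimmer Itgb1 probe set had signals of 972, 1432 and 1318 in HRG, 2217, 2399 and 2310 in PTN, and 1205, 1557 and 832 in BSN. There PTN was above both other media, by 1.98-fold over BSN (adjusted p = 0.00657), and HRG was 1.87-fold lower than PTN (0.0078). The Itgb1 probe sets therefore disagree on PTN, and which transcript each one reads was not analysed here.

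Itga3, the alpha subunit that with beta 1 binds laminins of mature epithelium, had signals of 4224, 3475 and 3820 in HRG, 3141, 2906 and 2316 in PTN, and 4379, 4021 and 4227 in BSN. PTN was the lowest medium on every array, 1.52-fold lower than BSN (adjusted p = 0.0107). Itga3 was 1.38-fold higher in HRG than in PTN (0.0317), a call lost after quantile normalization, median centring or a fit of only those groups, and without HRG replicate 1 or 3 or PTN replicate 2 or 3 (0.0512 to 0.126). Itga6, a laminin-binding subunit of basal epithelial cells, had signals of 912, 886 and 846 in HRG, 1189, 910 and 631 in PTN, and 1054, 926 and 1121 in BSN on its brighter probe set. Every HRG array was below every BSN array there without passing (adjusted p = 0.559). PTN overlapped both (0.999 with HRG and 0.49 with BSN). The dimmer Itga6 probe set had signals of 1140, 608 and 388 in HRG, 900, 718 and 404 in PTN, and 981, 1003 and 1118 in BSN. On it HRG overlapped both other media, every PTN array was below every BSN array, and no comparison passed (adjusted p = 0.191 to 0.981).

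Itgb5, the beta subunit of a vitronectin receptor, was 1.38-fold lower in PTN than in BSN on one probe set (1365 ± 219 and 1871 ± 129, SD, n = 3, adjusted p = 0.0444). That call was lost after quantile normalization (0.17) or median centring (0.113), with no filter, with the replicate block (0.0554), in a fit of only those groups, and without PTN replicate 2 or 3 or any 1 of the HRG or BSN arrays (0.0554 to 0.17). The second Itgb5 probe set passed in no comparison. Itgae, a lymphocyte integrin subunit, averaged 1020 ± 111 in HRG, 1429 ± 185 in PTN and 1023 ± 108 in BSN (SD, n = 3), and its PTN arrays lay above all others without passing (adjusted p = 0.05034 and 0.0581). Itga8, the nephronectin receptor of the metanephric mesenchyme, was not kept, with mean signals of 281 in HRG, 230 in PTN and 271 in BSN. Of the integrin-binding proteins, Itgb1bp1 passed in no comparison. Itgb3bp, a kinetochore protein in spite of its symbol, fell in HRG against BSN on one probe set just inside the threshold, which the second missed (adjusted p = 0.0553). The first was lost after quantile normalization, median centring, a pseudocount of 1, no filter, no intensity trend or the replicate block (0.0557), and without any 1 of the BSN arrays, HRG replicate 2 or 3 or PTN replicate 3 (0.05027 to 0.207).

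The 38 member probe sets that were not kept had signals between 4.3 and 1078, and 30 of them were above the 40th percentile on no array. They include every probe set of 24 genes, among them Col6a1, Col6a2, Col11a1, Col15a1, Lama2 and Itga1. They were tested where no filter was applied, and 3 of them passed there in at least 1 comparison. That is to be read against the shares of all 15866 probe sets with no filter. Those were 5.34% lower and 3.79% higher in HRG against BSN. In HRG against PTN 6.88% were lower and 7.88% higher, and in PTN against BSN 7.82% and 5.06%. Itga1, the alpha subunit of a collagen receptor, had signals of 411, 366 and 544 in HRG, 129, 111 and 255 in PTN, and 1078, 1014 and 758 in BSN. The media did not overlap, BSN was highest and PTN lowest, and the signal was above the 40th percentile of its array on 2 of the 9 arrays. Itga1 was lower in PTN than in BSN (adjusted p = 0.00102) and higher in HRG than in PTN (0.0138). Col11a1, a minor fibrillar chain, averaged 172 ± 74.2 in HRG, 437 ± 237 in PTN and 666 ± 182 in BSN (SD, n = 3) on its brighter probe set and was lower in HRG than in BSN (0.0126). A Vcan probe set averaged 204 ± 49.6 in HRG, 516 ± 296 in PTN and 687 ± 147 in BSN (SD, n = 3) and was lower in HRG than in BSN (0.0178). Signals this low do not show that a gene is silent.

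Proteins that make or bind this matrix were counted as 4 further lists, to be read against the shares of all kept probe sets: 8.86% lower and 6.92% higher in HRG against BSN, 11.7% lower and 14.1% higher in HRG against PTN, and 13.4% lower and 9.15% higher in PTN against BSN. Of the 24 counts 16 moved by over 1.5 times under at least 1 alternative. Of 16 kept collagen modifying and folding enzymes 4 fell and none rose in HRG against BSN, 2 fell and 1 rose in HRG against PTN, and 2 fell and 2 rose in PTN against BSN. The 2 lower in HRG against PTN were 2 to 4 over the alternatives, and the 2 lower in PTN against BSN were 1 to 3. Plod2, a lysyl hydroxylase for collagen cross-links, averaged 2674 ± 51.5 in HRG, 7076 ± 396 in PTN and 4492 ± 458 in BSN (SD, n = 3). The order was PTN, BSN, HRG, with a 2.63-fold fall in HRG against PTN (adjusted p = 6.8e-06), a 1.67-fold fall in HRG against BSN (0.00142) and a 1.58-fold rise in PTN against BSN (0.0032). P4ha1, a subunit of prolyl hydroxylase, was 2.98-fold lower in HRG than in PTN (7.17e-05) and 2.62-fold higher in PTN than in BSN (0.000418). Fkbp10, a collagen chaperone, was 1.94-fold lower in HRG than in BSN (0.002).

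Integrin adhesion complex genes had 21 kept members, of which 6 fell and 1 rose in HRG against BSN, 3 fell and 1 rose in HRG against PTN, and 3 fell and 2 rose in PTN against BSN. Every count of this list moved by over 1.5 times under some alternative, and the 6 that fell in HRG against BSN were 2 to 7. Fermt2, encoding kindlin 2, an activator of beta integrins, averaged 9607 ± 1505 in HRG, 25773 ± 3598 in PTN and 15681 ± 4071 in BSN (SD, n = 3). It was 2.68-fold lower in HRG than in PTN (adjusted p = 0.000119). Its calls in HRG against BSN (1.61-fold lower, 0.0227) and PTN against BSN (1.67-fold higher, 0.0128) were lost without BSN replicate 2 or 3 or HRG replicate 2 or 3 (0.0581 to 0.105), and without BSN replicate 1 or PTN replicate 3 (0.0596 and 0.0554). Tns1, encoding tensin 1, was 1.78-fold lower in HRG than in BSN (0.00274) and 1.56-fold lower in HRG than in PTN (0.00919). Nedd9, a scaffold of adhesion signalling, was 1.73-fold higher in HRG than in BSN (0.00712) and 1.61-fold higher in HRG than in PTN (0.0103).

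Of 7 kept receptors for matrix that are not integrins, 1 rose and 1 fell in HRG against BSN, 2 rose and 1 fell in HRG against PTN, and 1 rose in PTN against BSN. Hmmr, the receptor for hyaluronan-mediated motility, averaged 1286 ± 63.3 in HRG, 3310 ± 149 in PTN and 1884 ± 236 in BSN (SD, n = 3). It was 2.56-fold lower in HRG than in PTN (adjusted p = 1.51e-05), 1.76-fold higher in PTN than in BSN (0.00137) and 1.45-fold lower in HRG than in BSN (0.0158), a call lost without HRG replicate 3 (0.0628) or BSN replicate 1 (0.0762). Bcam, a receptor for laminin alpha 5, averaged 4079 ± 579 in HRG and 1937 ± 736 in PTN (SD, n = 3), a 2.18-fold rise (adjusted p = 0.00548). Cd47, a thrombospondin receptor, was 1.7-fold higher in HRG than in BSN (0.00138) and 1.49-fold higher in HRG than in PTN (0.00589). Other matrix glycoproteins had 18 kept genes of 41 on the array, with 6 lower and 1 higher in HRG against BSN, 3 lower and 2 higher in HRG against PTN, and 4 lower and 2 higher in PTN against BSN. Over the alternatives the 6 were 3 to 6, and the 3 and 2 of HRG against PTN were 2 to 6 and 1 to 4. In PTN against BSN the 4 were 2 to 5 and the 2 were 0 to 2. Mfap2, a microfibril glycoprotein, was 2.4-fold lower in HRG (2110 ± 460) than in BSN (5006 ± 263, adjusted p = 0.000123) and 1.78-fold lower in PTN than in BSN (0.0025). Efemp1, fibulin 3, was the glycoprotein that rose in HRG against BSN, at 2237 ± 272 in HRG, 823 ± 94.1 in PTN and 526 ± 72.6 in BSN (SD, n = 3). It was 2.69-fold higher in HRG than in PTN (9.7e-05), and its adjusted p for HRG against BSN was 8e-06. Nephronectin, the ureteric ligand of the integrin that contains alpha 8, was not measured here.

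Most markers of cells that make interstitial matrix did not pass the filter. Marker counts here and in the next paragraph are to be read against the shares of all kept probe sets. These were 8.86% lower and 6.92% higher in HRG against BSN, and 11.7% lower and 14.1% higher in HRG against PTN. In PTN against BSN they were 13.4% lower and 9.15% higher. Of 15 stroma and fibroblast markers 4 were kept, and the summed signal of the 15 was 5122 to 6091 in HRG, 4982 to 6307 in PTN and 6537 to 7119 in BSN. Of these 4, 1 passed in HRG against BSN, as lower, and none passed in the other comparisons. Vim, the intermediate filament protein of mesenchymal cells, was lower in HRG (745 ± 329) than in BSN (1502 ± 335, SD, n = 3, adjusted p = 0.0456), a call lost after quantile normalization (0.0579), with no filter (0.0958) or intensity trend (0.0615), and without BSN replicate 1 or 2, HRG replicate 2 or 3 or PTN replicate 2 (0.0514 to 0.178). Twist1, Twist2 and Tagln stayed at 7 to 36 on all 9 arrays, and no marker was at 0. Of 9 endothelium markers 3 were kept, with sums over the 9 of 4386 to 5492 in HRG, 3754 to 4738 in PTN and 4776 to 5370 in BSN. Of the 3, 1 was lower in each comparison and none was higher. Kdr, the VEGF receptor, fell in HRG (329 ± 27.6) against PTN (840 ± 229, adjusted p = 0.00258) and BSN (742 ± 29.5, 0.00792), while Pecam1 averaged 84.2, 61.6 and 71.8 in HRG, PTN and BSN. The other kept markers had higher means in HRG than in PTN without passing. Egfl7 averaged 1741 ± 247 in HRG, 1286 ± 318 in PTN and 1843 ± 21.8 in BSN (SD, n = 3, adjusted p = 0.0831 for HRG with PTN), and was lower in PTN than in BSN (0.0458). Esam averaged 1041 ± 164 in HRG, 796 ± 125 in PTN and 887 ± 65.3 in BSN (SD, n = 3), with an adjusted p of 0.161 for HRG with PTN, and passed in no comparison. The Egfl7 call was lost after quantile normalization, median centring, no filter, no intensity trend or a fit of only those groups, and without any 1 of the HRG or BSN arrays or PTN replicate 1 or 2 (0.0507 to 0.197). The median of the 3 was 0.38 on the log2 scale in HRG against PTN and -0.09 in HRG against BSN.

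Of 12 blood and macrophage markers 5 were kept, with sums over the 12 of 5554 to 6135 in HRG, 5969 to 6581 in PTN and 7286 to 7649 in BSN. Coro1a, an actin-binding protein of leukocytes, was lower in HRG (95.6 ± 30.5) than in PTN (1036 ± 164) and BSN (879 ± 235, SD, n = 3), with adjusted p of 1.23e-05 and 3.82e-05, and Ptprc, the pan-leukocyte marker, averaged 181, 155 and 166. Coro1a was the 1 of the 5 that passed in those comparisons, and none passed in PTN against BSN. In HRG against PTN the log2 changes of Aif1, C1qa and Csf1r were 0.17, 0.29 and 0.26, none past the threshold, and the median of the 5 was 0.17. The 3 mesenchyme markers summed to 760 to 1010 in HRG, 599 to 804 in PTN and 908 to 1365 in BSN. The ureteric markers had sums of 158127 to 173972 in HRG, 135265 to 159168 in PTN and 163047 to 174026 in BSN. Of the 10 kept, 1 was higher and 2 were lower in HRG against BSN (6.92% and 8.86% of all kept probe sets). In HRG against PTN 4 were higher and 2 lower (14.1% and 11.7%). In PTN against BSN 1 was higher and 3 were lower (9.15% and 13.4%). Ret, the GDNF receptor of the bud tip, averaged 918 ± 171 in HRG, 18756 ± 850 in PTN and 13512 ± 1883 in BSN (SD, n = 3), lower in HRG against both (adjusted p = 4.14e-09 with PTN and 1.8e-08 with BSN). Its higher signal in PTN than in BSN (0.0424) missed the threshold after quantile normalization, with no filter, no intensity trend or the replicate block, and without any 1 of the PTN arrays, HRG replicate 2 or BSN replicate 1 or 3 (0.0519 to 0.16). Lhx1 was also lower and Krt19 higher in HRG than in either other medium. Krt18 and Cdh16 were lower in PTN than in either other medium, and Krt8 was lower in PTN than in HRG (0.00299) and than in BSN (0.0453). The Krt8 call with BSN was lost after median centring, no filter, no intensity trend or a fit of only those groups, and without any 1 of the HRG or BSN arrays or PTN replicate 2 or 3 (0.0572 to 0.157). The part of other cell types in the matrix results was not tested.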

How the data were processed

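RNA of 9 samples, amplified by 2 rounds of in vitro transcription per the labels' protocols, was hybridised to Affymetrix rat RAE230A arrays. The authors deposited 1 table of signal intensities per probe set on a linear scale. The tool is GCOS per the submitters' processing notes, and its version is not given in the sources used here. Trimmed means of the arrays were 2500.48 to 2500.58, so no scaling was added. Array signals give no read depth, and the number of arrays limits the precision. Control probe sets (57) were set aside, and gene symbols came from the platform's probe table, whose annotation can be old.

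Values were transformed as log2(signal + 16) and fitted with limma 3.58.1 under R 4.3.3 (eBayes with an intensity trend) on all 9 arrays. Adjusted p is Benjamini-Hochberg over the 10106 kept probe sets, with a threshold of 0.05. There were 6 residual degrees of freedom, or 12.7 with moderation. P-values measure the spread between samples of 3 pooled buds. Probe sets of one gene were tested separately, and the lists of other genes used the brightest kept probe set of each gene. Array ratios were compared with exact permutation tests. On simulated data for HRG against BSN, with 10106 probe sets, the fit recovered 83.6% of changes set to 1 on the log2 scale, 18.2% of those set to 0.5 and 98.5% of those set to 2, and 9 of 9906 unchanged probe sets were called. Far fewer probe sets were changed there than were called in the data, which makes the adjusted p stricter. That setting alone would make the recovery lower than that of the real fit. The simulated noise was normal and independent between probe sets, with no array unlike its group, which may make it higher. Which of these weighs more was not tested.

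Members and lists were chosen with earlier results of these data known. Given with the signal on each array were members that passed with a log2 change of at least 1, and Col18a1, Col9a1, Lama4, Fn1, Itgb1, Itga3, Itga6, Itga8, Lama5, Lamc1, Nid1, Spp1 and Col4a1 by their brightest probe set. Itga8 and Spp1 are given by their means, and the second Col5a2 probe set by its folds. Other members that passed are named with their fold. Agrn, Col4a5, Lama3, Itga1, the brighter Sparc probe set and the dimmer Itgb1 and Itga6 probe sets were given by array after their values were seen. The members named without a call were also chosen then. Of other lists at most the 3 highest and 3 lowest members that passed were named.

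Whether the replicate numbers pair samples was judged by correlating the deviations of same-numbered arrays from their group means. The r was 0.266, 0.332 and 0.118 for HRG with PTN, all over 0.1, the cut set here for a possible pairing. It was -0.055, 0.130 and 0.091 for HRG with BSN, and -0.097, -0.011 and -0.064 for PTN with BSN. The labels state no pairing and differently numbered arrays were not compared, so a pairing is not shown. The main fit held no block. Alternatives were quantile normalization, median centring, other pseudocounts and filters, a fit with no trend, array weights, a fit of the compared groups alone, the replicate block, each array left out, a 2-fold minimum and 1 probe set for each gene. Promoter windows came from RefSeq on GRCr8. Figures were drawn with matplotlib 3.10.9.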

Additional observations from a re-analysis of the deposited data

How the results depend on the processing

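No change of direction occurred among the member calls under any alternative run, and 12 of 17 calls in HRG against BSN, 13 of 20 in HRG against PTN and 7 of 13 in PTN against BSN passed in each alternative that tested them. With a minimum of 2-fold the members numbered 9 lower and 2 higher in HRG against BSN (3.03% and 1.82% of all kept probe sets), 9 lower and 1 higher in HRG against PTN (3.67% and 3.73%), and 3 lower and 1 higher in PTN against BSN (2.97% and 1.26%). A filter at the 60th percentile, which tests fewer probe sets, left 8 lower members in HRG against PTN, and a fit of only the groups compared gave 5 higher members in PTN against BSN. Leaving out 1 array gave 11 to 17 lower and 2 to 3 higher members in HRG against BSN, 9 to 14 lower and 4 to 10 higher in HRG against PTN, and 5 to 13 lower and 2 to 4 higher in PTN against BSN. With the replicate number as a block, counts lower and higher were 14 and 3, 13 and 7, and 9 and 3 in the same comparisons. The block ended the calls named beside their results and moved no count of members by over 1.5 times. The alternatives for the named genes and counts of other lists were added after the data were seen, and 16 of the 24 counts of those lists moved by over 1.5 times under at least 1 of them. With 3 arrays per medium the simulated fit, which held fewer changed probe sets than the data, missed most changes of 0.5 on the log2 scale. A member that did not pass was not shown to be equal between media.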
